A study of Sus scrofa with 85 samples.

Results

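Genes that are abundant in swine blood and scarce in healthy swine myocardium were followed through a myocardial infarction in the micro-endomyocardial biopsies (micro-EMB) of the same animals. A gene was a member when the mean log2(CPM + 1) of blood was at least 5, the means of blood at 2 days and 14 days differed by less than 1, and blood exceeded baseline heart by at least 3. CPM is the count of a gene per 1000000 counts of its library. Of 31907 genes in the count table, 469 passed these thresholds, and the 150 with the largest difference between blood and baseline heart were the members. The members were thus chosen by their levels in blood, by the difference between blood at 2 days and 14 days and by their levels in baseline heart, so these values are given as a description and were not tested.

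Leukocytes carry the receptors, adhesion molecules and signalling proteins by which they leave the blood and act in tissue. After an infarction, neutrophils are known to enter the myocardium first, monocytes and macrophages follow, and lymphocytes take part in the later repair. A biopsy of heart also holds resident immune cells and the blood of its vessels, so the transcripts of blood cells in a bulk biopsy have several sources. In bulk RNA, fewer cells of a type and less RNA per cell cannot be told apart.

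The 3 swine were female Yorkshire-Swedish mixed farm pigs. The distal left anterior descending artery was closed with a balloon for 1 h and then reperfused, so that 0–1 h lies within the occlusion and 1–3 h, 2 days and 14 days lie after it. Micro-EMB came from the infarcted region (apical) and from the non-infarcted region (lateral) of the same hearts, and whole blood was sequenced from the same swine. All animals were infarcted, there was no sham animal, and the baseline biopsies, taken before the occlusion, are labelled apical although they were not aimed at a region. The swine are numbered 1640, 1644 and 5385 in the labels. A biopsy of this kind is a very small piece of myocardium, and several biopsies of 1 animal and timepoint are separate pieces of 1 heart.

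Of 85 libraries sequenced, 57 were usable, with 45 of 62 heart libraries and 12 of 23 blood libraries. A library was usable with at least 1000000 counts and with its 10 most counted genes holding at least 7% and under 60% of the counts. By these limits 1 library had too few counts, 25 had an even profile with under 7% in the top 10 genes, and 2 were dominated by a few genes. Usable libraries held 3499443 to 16659110 counts. The infarcted region had 4 usable libraries at baseline and then, in the order of the timepoints, 5, 9, 4 and 7, and the non-infarcted region had 3, 3, 4 and 6 from 0–1 h on. The 3 lateral libraries of 1–3 h came from 2 swine. Among the usable heart libraries, 6 stood apart on the second principal component of the expression values in the way of the fibrous biopsies of the study. Of these, 5 were taken after baseline. The study excluded its fibrous biopsies, whereas these libraries were kept here in the sums and main fits and left out only in an alternative. The 17 heart libraries that were left out had a summed member level of 6136 to 9791.6 CPM, above every usable heart library, and their part in the results was tested only by adding them back.

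Of the members that stood in a list of marker genes, most were genes of lymphocytes or of leukocytes in general. The list of genes expressed by all leukocytes had 36 measured genes, of which 17 were members, among them PTPRC (CD45, the common leukocyte phosphatase), LCP1 (the actin bundler L-plastin), ITGB2 (the shared chain of the leukocyte integrins), CORO1A and LAPTM5. The T cell list gave 16 of 23 genes, with the receptor chains CD3D, CD3E and CD247, the kinase LCK and the transcription factors LEF1 and BCL11B. The B cell list gave 6 of 14, among them CD79B, MS4A1, BLK, PAX5 and POU2AF1. The neutrophil list gave 5 of 16, among them CSF3R, MMP25, TREM1 and ARG1. Of 15 erythroid genes, AHSP (a chaperone of alpha globin) and TRIM58 were members, and the cytotoxic list gave GZMH alone. None of 14 monocyte and macrophage genes, 9 platelet genes or 17 genes of innate sensing was a member. Cardiomyocyte, fibroblast and endothelial genes were absent as well, as the rule requires low levels in heart. A total of 100 members were in no list.

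Among the strongest contrasts between blood and baseline heart were those of SDS (serine dehydratase) at 7.78 on the log2 scale, LEF1 at 7.46, RHEX at 7.37 and CSF3R (the receptor of granulocyte colony-stimulating factor) at 7.14. Others were BCL11B at 6.91, IL7R (the interleukin-7 receptor) at 6.85, TENT5C at 6.80, CCR7 (a homing receptor of lymphocytes) at 6.71 and CD5 at 6.69. Just inside the limit of 150 were LAPTM5 at 4.87 and PTPN22 at 4.86, and just outside were TMEM154 at 4.85, ZBTB32 at 4.84 and PMAIP1 at 4.84. There was no gap at the limit. Leaving out 1 of the 4 baseline libraries exchanged between 7 and 13 of the members.

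The members were spread over 19 chromosomes. A position in the RefSeq annotation of Sscrofa11.1 was matched for all but 35 members. With a limit of 100000 bases between genes, 13 members stood in 7 neighbouring pairs. Among them are CD5 and CD6 on chromosome 2, CD48, CD84 and SLAMF6 on chromosome 4, CD3E and CD3D on chromosome 9 and GIMAP6 and GIMAP4 on chromosome 18. CD3D and CD3E encode chains of the same receptor, and the GIMAP genes encode small GTPases of lymphocytes. How often other genes stand in such pairs was not taken, so the pairs are a description.

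The promoters of blood cell genes often carry sites of PU.1, the ETS factor of myeloid and B cells, and of RUNX factors. The letters GAGGAAGT of a PU.1-type site were searched on both strands in the 250 bases before the gene start. They stood in 7 of the member windows (6.09%) and in 320 of 19506 windows of all genes (1.64%). The letters TGTGGTTT of a RUNX-type site stood in 4 member windows (3.48%) and in 1.06% of all windows. DAPP1 held both motifs, at separate places. A match describes letters and is not a bound site. The members with PU.1-type letters were CCR7, CD5, DAPP1, ITGB2, NCF1, SNCG and TAGAP, and those with RUNX-type letters were CD6, DAPP1, FCMR and NFE2. Shown here are DUSP2, the member with the clearest change in the heart, whose window held neither motif, NCF1 (a subunit of the NADPH oxidase of phagocytes) and ITGB2 with PU.1-type letters, and CD6 (a T cell surface receptor) with RUNX-type letters. The windows run 5′ to 3′ on the strand of the gene, end at the base before its start and have the matched letters, here all on the opposite strand, in capitals. DUSP2 lies at chr3:47052193-47052442 on the plus strand, NCF1 at chr3:11820117-11820366 on the plus strand, ITGB2 at chr13:207544109-207544358 on the minus strand and CD6 at chr2:10785549-10785798 on the minus strand of Sscrofa11.1.
DUSP2: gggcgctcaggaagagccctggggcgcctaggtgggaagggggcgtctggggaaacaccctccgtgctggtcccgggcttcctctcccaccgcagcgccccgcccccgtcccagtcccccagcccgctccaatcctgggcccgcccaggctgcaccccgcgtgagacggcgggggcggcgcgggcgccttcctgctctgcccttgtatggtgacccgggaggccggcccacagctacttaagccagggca
NCF1: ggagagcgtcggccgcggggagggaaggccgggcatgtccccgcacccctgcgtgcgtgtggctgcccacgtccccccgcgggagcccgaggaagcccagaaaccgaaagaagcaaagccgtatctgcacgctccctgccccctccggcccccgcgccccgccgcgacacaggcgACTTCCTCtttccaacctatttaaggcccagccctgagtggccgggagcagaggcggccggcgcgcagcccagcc
ITGB2: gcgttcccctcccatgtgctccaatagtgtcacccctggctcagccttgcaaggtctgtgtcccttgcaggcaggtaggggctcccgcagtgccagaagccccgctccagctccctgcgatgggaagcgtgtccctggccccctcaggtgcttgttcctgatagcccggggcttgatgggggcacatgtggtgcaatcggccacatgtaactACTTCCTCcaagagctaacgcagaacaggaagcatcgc
CD6: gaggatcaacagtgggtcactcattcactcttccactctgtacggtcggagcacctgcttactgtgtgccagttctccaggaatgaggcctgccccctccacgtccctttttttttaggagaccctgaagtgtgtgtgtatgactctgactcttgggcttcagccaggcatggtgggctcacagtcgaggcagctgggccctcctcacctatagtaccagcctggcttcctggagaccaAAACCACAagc

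Every member stayed far below its level in blood in most heart libraries. The summed level of the members in heart was a few percent of that in blood. A low level in baseline heart was part of the choice of members, so the low share in later biopsies is no separate result. Summed over the 150 members, the 12 blood libraries held 37652.8 to 53810.5 CPM with a median of 48471.8. The 41 usable heart libraries after baseline held 502.1 to 5326.3 CPM with a median of 1285.1, which is 1.04% to 10.99% of the blood median. These sums rest on 3940 to 56516 counts per heart library, and at least 81 of the members reached 1 CPM in each.

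**Figure D1:**
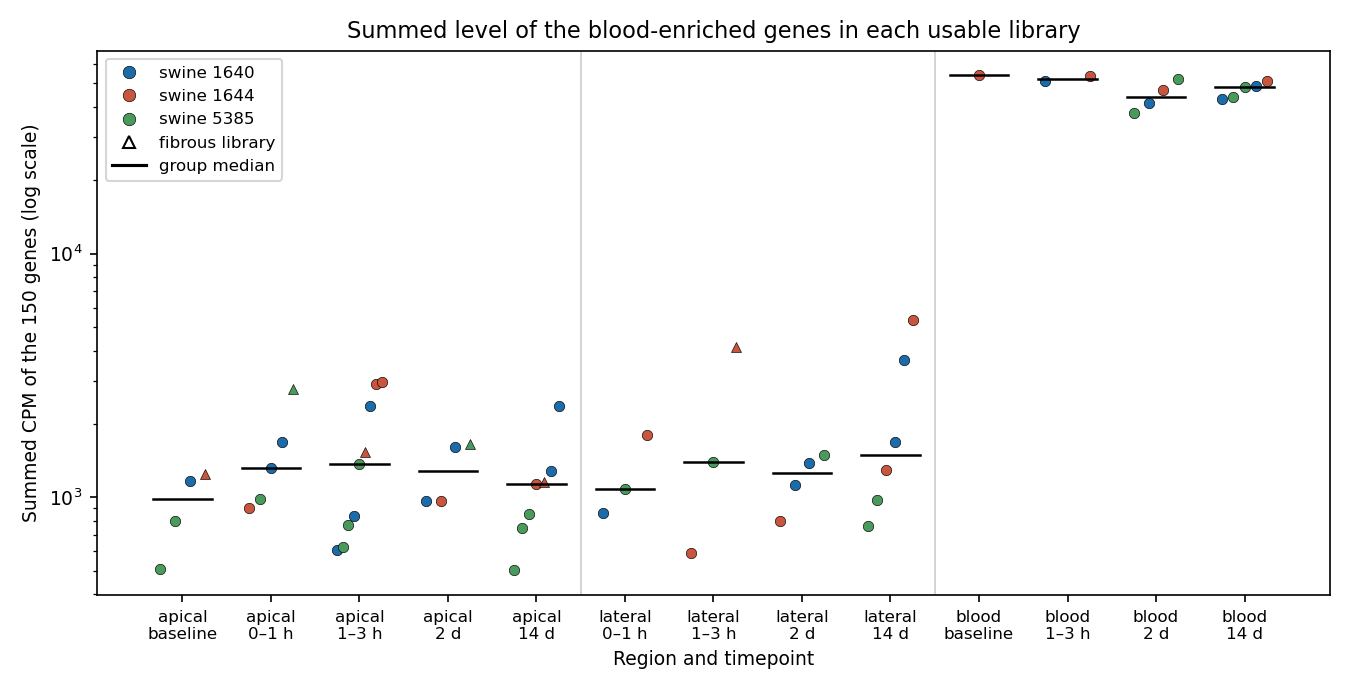
Summed CPM of the 150 members in every usable library on a log axis, by region and timepoint, with the colour giving the swine, triangles for the 6 fibrous libraries and a bar at the group median. The heart libraries after baseline lie between 502.1 and 5326.3 CPM, the timepoints of both regions overlap, and the blood libraries lie at 37652.8 CPM and above.

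The group medians of the summed level differed by less than the spread within groups. In the infarcted region they were 1316.5, 1373.3, 1284.2 and 1136.2 CPM in the order of the timepoints from 0–1 h to 14 days, or 2.72%, 2.83%, 2.65% and 2.34% of the blood median. In the non-infarcted region they were 1077.4, 1397.5, 1252.4 and 1491.3 CPM at the same timepoints, or 2.22%, 2.88%, 2.58% and 3.08%. The 4 baseline libraries held 510.0, 800.7, 1166.9 and 1240.3 CPM, and these low values were part of the choice of members. The summed level spanned 607.1 to 2959.2 CPM within the 9 apical libraries of 1–3 h and 502.1 to 2380.1 CPM within the 7 apical libraries of 14 days. The range within each group was wider than the distance between the group medians of its region. These medians depended on the number of members and on the libraries kept, with 3.81% to 7.31% of blood in the infarcted region for 300 members and 16.3% at 2 days there with all libraries of at least 1000000 counts.

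The highest summed levels were in single biopsies and not in 1 timepoint, and swine 1644 gave several of them. The lateral library of 14 days with 5326.3 CPM came from swine 1644. The lateral library of 1–3 h with 4119.1 CPM, also from swine 1644, was among the 6 that stood apart. The lateral library of 14 days with 3644.1 CPM came from swine 1640. Next were apical replicates 3 and 2 of 1–3 h with 2959.2 and 2912.4 CPM, both of swine 1644. The apical median of 1–3 h was 2912.4 CPM in swine 1644, 834.9 in swine 1640 and 772.0 in swine 5385. The 3 next lower lateral libraries of 14 days held 1689.9, 1292.7 and 971.8 CPM, and the lowest held 759.9 CPM. In swine 5385, both lateral libraries of 14 days and all 3 apical libraries of 14 days stayed under 1000 CPM, with a range of 502.1 to 852.1 CPM in the apical ones.

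The summed level moved with the share of the counts held by the 10 most counted genes of a library. The 5 libraries with the highest sums had 11.7% to 19.4% of their counts in these genes, and the 5 with the lowest had 24.97% to 33.5%. The 10 heart libraries with a share under 20% held 1285.1 to 5326.3 CPM with a median of 2646.2, and the other 31 held 502.1 to 2795.0 CPM with a median of 979.9. The part of this share in the summed level was not tested. The cardiomyocyte list had a median of 46389.96 CPM in heart after baseline and 233.05 CPM in blood.

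The members did not stand at 1 common share of their blood level. The median over members of the heart level as a percent of the blood level was 2.12%, with quartiles of 1.32% and 3.04% and a range of 0% to 8.55%. The members of the list of all leukocytes had a median of 3.17%, the neutrophil members 2.29%, the T cell members 1.54%, the B cell members 1.15%, the trafficking receptors 1.63% and the members in no list 2.17%. These are ratios of medians over libraries and share the same libraries. Among the members, the median of the genes of all leukocytes lay at a higher share of blood than those of the T cell and B cell genes. The lists overlapped. The rule chose genes by a low level in baseline heart against blood, and list genes that failed it are not in these medians. Low shares in later biopsies of the same hearts, and their order by list, are thus a description and were not tested.

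**Figure D2:**
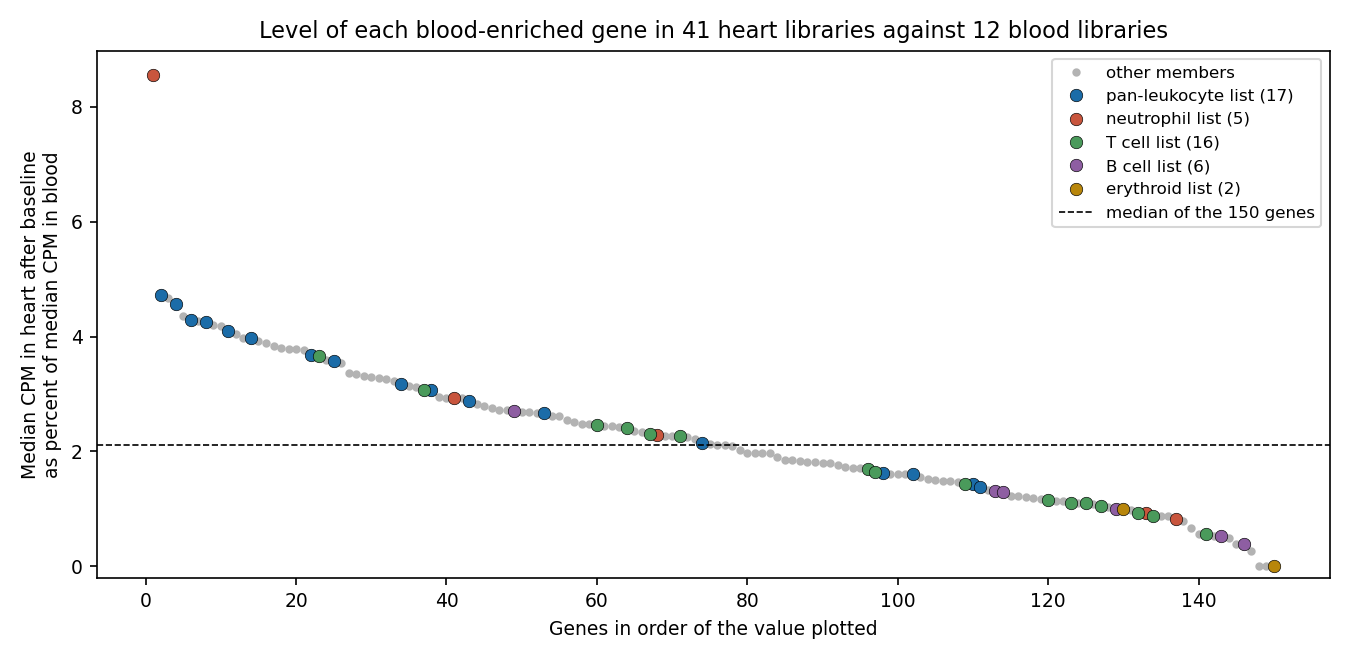
Median CPM of each member in 41 heart libraries after baseline as a percent of its median CPM in 12 blood libraries, with the members in the order of this value, coloured by gene list, and a dashed line at the median of 2.12%. MMP25 stands alone at 8.55%, and the T cell and B cell members lie mostly to the right of those expressed by all leukocytes.

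MMP25, a membrane-bound metalloproteinase of neutrophils, was the only member above 5% of its blood level, and 21 members were under 1%. Next were LAPTM5, a lysosomal protein of leukocytes, at 4.73%, SLC9A7 at 4.66% and NCKAP1L, a regulator of the leukocyte cytoskeleton, at 4.57%. At the other end were CCR7 at 0.560%, MS4A1 (CD20) at 0.521%, FCMR (the Fc receptor of IgM) at 0.488%, SDS at 0.391% and CD79B (a chain of the B cell receptor) at 0.381%. AHSP and 2 members without a symbol had a median of 0 CPM in heart after baseline. AHSP had 44.7 to 251.5 CPM in blood and at most 1.41 CPM in any heart library after baseline. TRIM58, the other erythroid member, had 19.0 to 84.0 CPM in blood and at most 15.6 CPM in heart, with a median of 0.996% of blood. The 13 erythroid genes that are not members summed to 30.2 to 6062.4 CPM over these heart libraries, with a median of 441.4, and to a median of 6053.9 CPM in blood, so red cell genes as a whole were not near 0 in the biopsies. PTPRC was at 39.2 to 243.9 CPM in every heart library after baseline and at 1839 to 3274 CPM in blood.

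Only 6 members reached their lowest blood level in any heart library after baseline. MMP25 did so in 6 libraries, and DUSP2, CCR1, TGFA and 2 members without a symbol did so in fewer. TGFA (transforming growth factor alpha) reached 57.5 CPM in 1 heart library against a lowest blood level of 44.5 CPM. At the lower end, 52 members had at least 1 CPM in all 41 libraries.

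The neutrophil members were examined by library because they did not all move alike. In the infarcted region MMP25 had 0.17, 0.95, 2.00, 6.52 and 100.1 CPM at 0–1 h. At 1–3 h its lowest, median and highest values were 0.76, 15.4 and 68.7 CPM in 9 libraries, and at 14 days 0.45, 1.48 and 46.0 CPM in 7. The groups overlapped, since 1 library of 14 days was as high as the upper libraries of 1–3 h. At 1–3 h against 14 days MMP25 had a log2 fold change of 1.54 ± 1.11 (SE) and an adjusted p of 0.5304 by edgeR. In blood MMP25 was at 35.0 to 83.0 CPM, so the library with 100.1 CPM, from swine 1640 at 0–1 h, was above all blood libraries. PTPRC in that library was 66.3 CPM, the lowest of its group.

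Tests were made between heart groups after baseline, which the choice of members did not use. The quasi-likelihood test of edgeR was fitted on all genes with at least 1 CPM in 20% of the libraries, p-values were adjusted over all genes tested by the Benjamini-Hochberg method, and a gene was called at an adjusted p of at most 0.05. The fits left out 4 members in the infarcted region and 5 in the non-infarcted region and in both together. AHSP and 2 members without a symbol were too low in each. CD79B was too low in the infarcted region and in both together, and MS4A1 in the non-infarcted region and in both together. One more member without a symbol was too low in the non-infarcted region. All comparisons with 14 days within a region share the same libraries of 14 days and are not independent of each other. Several libraries came from the same animal, so the p-values measure the spread between biopsies of 3 swine.

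In the infarcted region at 1–3 h, DUSP2, CCR1 and 2 members without a symbol rose against 14 days, and no member fell. DUSP2 is a phosphatase of the nucleus that is induced in activated leukocytes, and CCR1 is a chemokine receptor of myeloid cells. Of the members tested, 4 (2.74%) were called, all higher, while 3.62% of the 18326 genes tested were called and 2.29% were called higher. The share of members called was thus near that of all genes. At an unadjusted p under 0.05, 15 members (10.3%) were higher and 1 (0.685%) was lower, where the shares of all genes were 9.05% and 9.15%. The median log2 fold change was 0.47 over the members and 0.10 over all genes, and 84.2% of the members and 55.8% of all genes were above 0. With 1 library left out the members' median ranged from 0.31, without apical replicate 2 of 1–3 h, to 0.80, without apical replicate 6 of 14 days. With the swine as a block, which pairs libraries of the same animal, 1 member was called, DUSP2. Over 25 alternatives in samples and processing DUSP2 was called in 24, with fold changes of 4.81 to 5.38 on the log2 scale, CCR1 in 14 and the others in 11 and 7. The exception for DUSP2 was the sum of the counts per swine, with an adjusted p of 0.2876.

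DUSP2 (Ensembl gene ENSSSCG00000035971) had 1.88 CPM in the lowest, 16.3 in the median and 62.7 in the highest of the 9 apical libraries of 1–3 h. In the 7 apical libraries of 14 days it had 0.29, 0.78 and 1.36 CPM. Every library of 1–3 h lay above every library of 14 days. The log2 fold change was 5.20 ± 0.98 (SE) with an adjusted p of 0.006885 by edgeR. At 0–1 h DUSP2 had 0, 1.17, 1.54, 2.17 and 32.2 CPM, and at 2 days 0.42, 0.78, 1.08 and 1.16 CPM. The values of 0–1 h overlapped both 1–3 h and 14 days, and those of 2 days lay within the range of 14 days.

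The biopsies of 1–3 h with the highest DUSP2 were not those with the highest PTPRC. The 3 libraries of swine 5385 had the highest DUSP2, with 51.8, 55.0 and 62.7 CPM, and 51.9, 55.8 and 56.3 CPM of PTPRC. At 14 days PTPRC had 45.1, 54.7 and 126.9 CPM in the lowest, median and highest apical library, which encloses these values. The apical library of 1–3 h with the highest PTPRC, 178.7 CPM from swine 1644, had 11.2 CPM of DUSP2. PTPRC itself had a log2 fold change of 0.16 ± 0.24 (SE) at 1–3 h against 14 days with an adjusted p of 0.7811 by edgeR. DUSP2 in blood was 42.7 to 132.1 CPM, so the 3 highest biopsies lay within the range of blood while PTPRC in them was far below its lowest blood level of 1839 CPM. Which cells of the biopsy held the transcript was not tested.

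**Figure D3:**
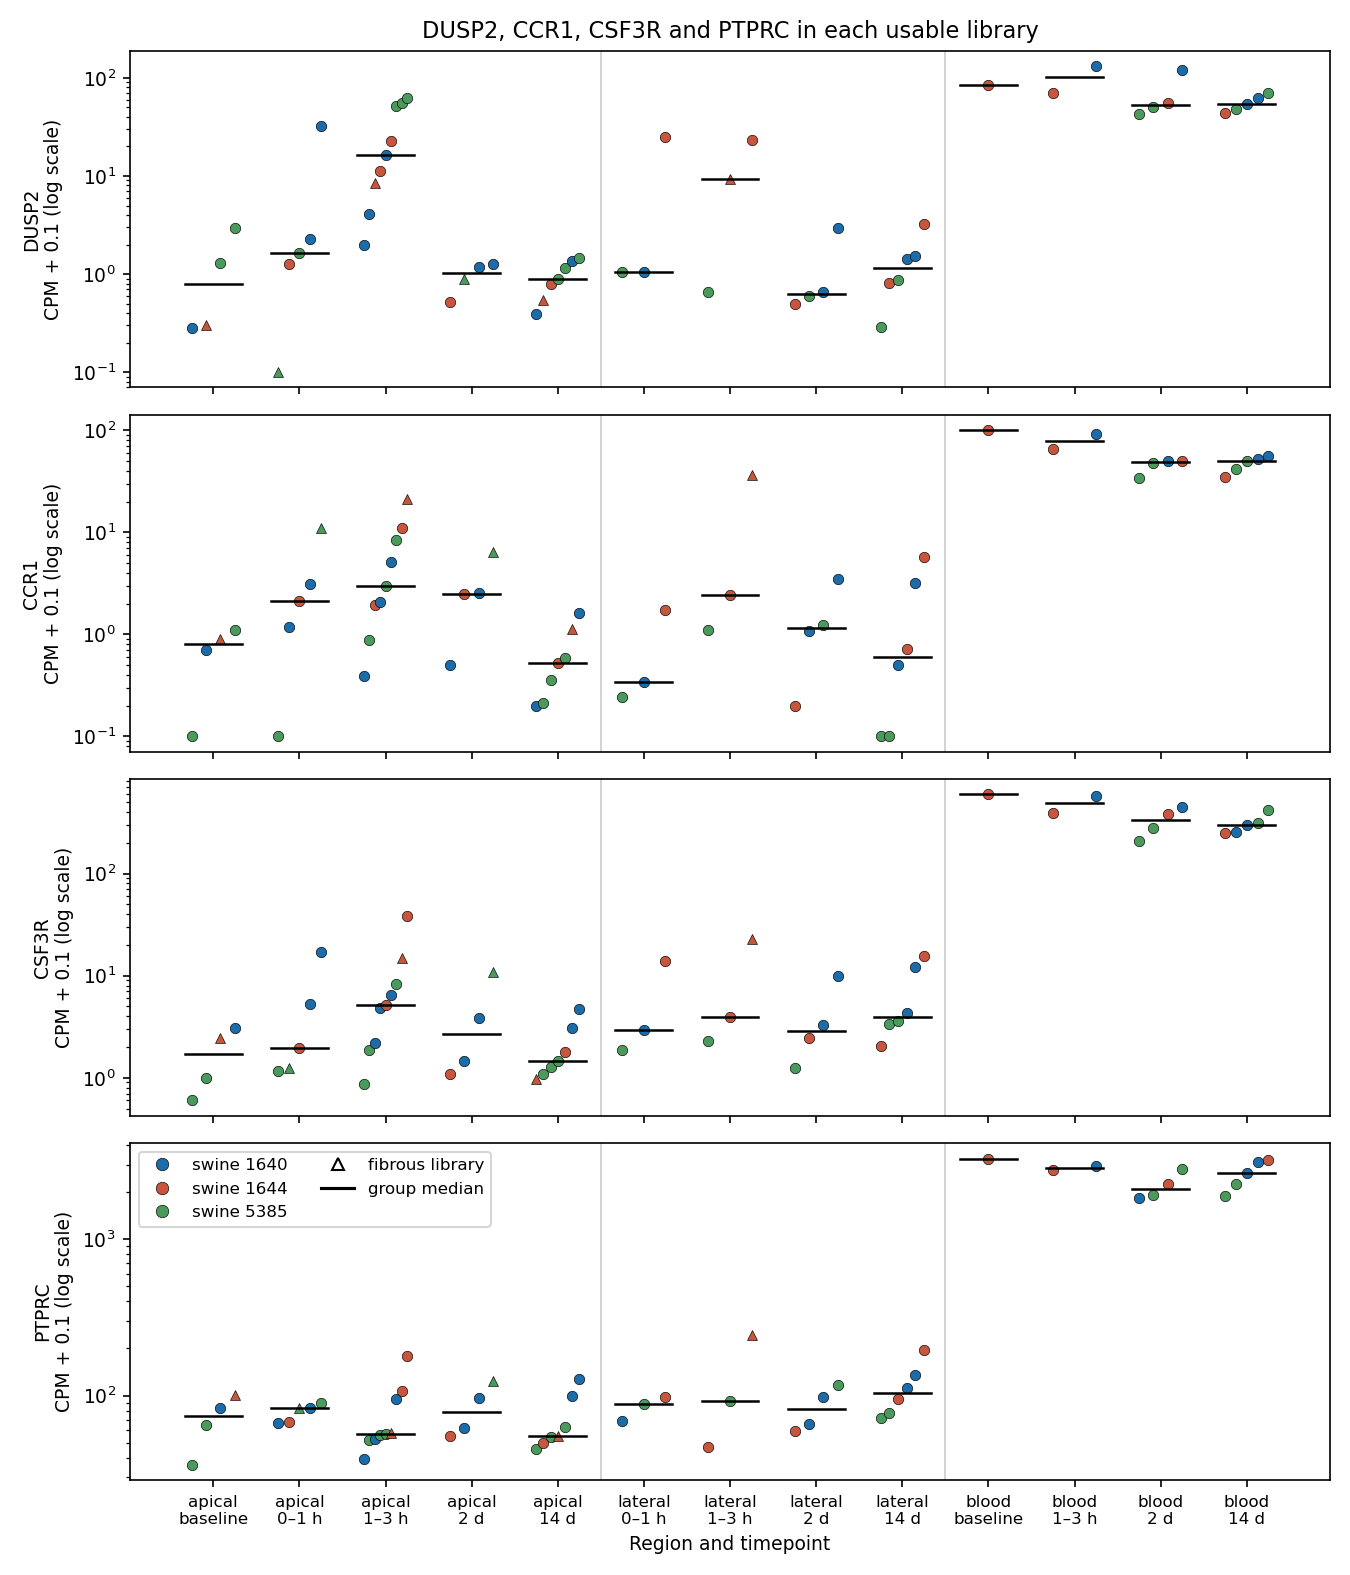
CPM + 0.1 of DUSP2, CCR1, CSF3R and PTPRC in every usable library on log axes, by region and timepoint, with the colour giving the swine, triangles for fibrous libraries and a bar at the group median. DUSP2 lies at 1.88 to 62.7 CPM in the apical libraries of 1–3 h and at 0.29 to 1.36 CPM in those of 14 days, while PTPRC overlaps between the heart groups.

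CCR1 had 0.29, 2.89 and 21.1 CPM in the lowest, median and highest apical library of 1–3 h and 0.10, 0.42 and 1.52 CPM at 14 days. The groups overlapped in the lowest libraries of 1–3 h. Its log2 fold change was 3.49 ± 0.92 (SE) with an adjusted p of 0.0334 by edgeR. The member ENSSSCG00000016184 had 0.15, 3.00 and 22.4 CPM at 1–3 h and 0.12, 0.39 and 2.08 CPM at 14 days, with a log2 fold change of 3.38 ± 0.92 (SE) and an adjusted p of 0.03901. The member ENSSSCG00000044736 had 1.01, 5.91 and 16.2 CPM at 1–3 h and 0.37, 1.46 and 3.08 CPM at 14 days, with a log2 fold change of 2.23 ± 0.63 (SE) and an adjusted p of 0.04706. Both overlapped between the groups. In blood CCR1 had 34.26 to 100.02 CPM, and the called members other than DUSP2 stayed below their blood levels in all 9 libraries of 1–3 h. Against the same libraries of 14 days, CCR1 was at 2.55 ± 0.97 (SE) at 0–1 h and 2.46 ± 1.02 at 2 days. ENSSSCG00000016184 was at 1.81 ± 0.97 and 1.71 ± 1.04, and ENSSSCG00000044736 at 0.92 ± 0.69 and 1.32 ± 0.73. None of these was called, and a rise of the 3 genes particular to 1–3 h was not shown.

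CSF3R came next, with 0.76, 5.01 and 37.9 CPM at 1–3 h and 0.87, 1.36 and 4.64 CPM at 14 days in the infarcted region. The groups overlapped, and the log2 fold change of 2.26 ± 0.74 (SE) had an adjusted p of 0.08415 by edgeR and of 0.01267 by DESeq2. By DESeq2, 7 members were called, with CSF3R, STEAP4 (a metalloreductase) and BLK (a kinase of B cells) beside the 4. These were 6.60% of the members with an adjusted p by DESeq2, which gave none for 40 members, where 13.1% of all genes with one were called. The neutrophil members TREM1 (a receptor that amplifies inflammation) at 1.19 ± 1.02 and ARG1 (arginase) at −0.05 ± 0.57 had adjusted p of 0.6184 and 0.9733.

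By list, none of the members in the lists of all leukocytes (17 tested), neutrophils (5), T cells (16) or B cells (5) was called at 1–3 h against 14 days in the infarcted region, and CCR1 was the 1 trafficking receptor of 7. Before adjustment 1, 1, 0 and 1 of them had a p under 0.05, and DESeq2 called CSF3R and BLK. Of all genes tested, edgeR called 3.62%, and DESeq2 called 13.1% of those with an adjusted p. Before adjustment 9.05% of all genes were higher and 9.15% lower at a p under 0.05. The lists are short, so counts by list were not weighed against these shares. The median log2 fold changes of these members were 0.37, 1.19, 0.46 and 1.05, and 0.73 for the trafficking receptors. The whole lists, with their genes that are not members, gave 1 call each for LYN (a kinase of myeloid and B cells) at 0.97 ± 0.26 with an adjusted p of 0.03286 and for GATA3 (a transcription factor of T cells) at 1.49 ± 0.40 with 0.03357. ITGB3 of the platelet list at 2.71 ± 0.68 and CLDN5 (a tight junction protein of endothelium) at 2.28 ± 0.54 were called as well, with adjusted p of 0.02744 and 0.02017. Of the 12 monocyte and macrophage genes tested edgeR called none, 0 had an unadjusted p under 0.05, and their median was −0.21. LYN had 27.0 to 66.9 CPM at 1–3 h and 14.2 to 39.8 CPM at 14 days. GATA3 had 2.58 to 25.76 and 3.06 to 12.75 CPM, and CLDN5 had 3.88 to 45.18 and 1.4 to 11.36 CPM. ITGB3 had 8.61, 23.04 and 443.07 CPM in the lowest, median and highest library of 1–3 h and 7.46 to 21.45 CPM at 14 days. Its highest level in blood was 103.99 CPM. For each of these genes the groups overlapped.

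At 0–1 h against 14 days in the infarcted region no member was called by edgeR, nor was any gene (0% of 18326), and DESeq2 called 0 members and 0.0804% of all genes, with no adjusted p for 40 members. Before adjustment, at a p under 0.05, 9 members (6.16%) were higher and 0 lower, where 2.06% and 1.01% of all genes were. The median log2 fold change was 0.24 over members and 0.00 over all genes, and the members' median ranged from 0.04 without apical replicate 3 of 0–1 h to 0.59 without replicate 6 of 14 days. DUSP2 at 3.40 ± 0.97 (SE) and NCF1 at 1.79 ± 0.62 were among the 3 members with the smallest p, with adjusted p of 1 and 1. DUSP2 rests here on 1 of 5 libraries. The remaining gene of the 3, ENSSSCG00000029414, had 322.1 CPM in 1 library of swine 5385, which stood apart on the second component, and at most 3.02 CPM in the other 4.

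At 2 days against 14 days in the infarcted region no member and no gene (0%) was called by edgeR. DESeq2 called 0 members and 0.0849% of all genes, with no adjusted p for 102 members. With p under 0.05 before adjustment, 5 members (3.42%) were higher and 0 lower, against 2.04% and 0.813% of all genes. LAPTM5 had 27.2, 28.9, 31.4 and 52.2 CPM at 2 days and 10.4, 16.0 and 21.8 CPM in the lowest, median and highest library of 14 days. Its log2 fold change of 1.13 ± 0.44 (SE) had an adjusted p of 0.9997 by edgeR. GIMAP4 had 24.3, 38.1, 40.3 and 52.2 CPM at 2 days and 13.2, 17.3 and 23.8 CPM at 14 days, with 1.16 ± 0.50 and an adjusted p of 0.9997. LAPTM5 was named for the smallest p among the members and GIMAP4 after its values were seen. CCR1, also among the 3 members with the smallest p, was at 2.46 ± 1.02 with an adjusted p of 0.9997 by edgeR. A rise of any of these genes was not shown. The median over members was 0.21 and that over all genes −0.09, and without the fibrous libraries the members' median was −0.07. With 1 library left out it ranged from −0.14, without apical replicate 6 of 2 days, to 0.45, without replicate 6 of 14 days.

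**Figure D4:**
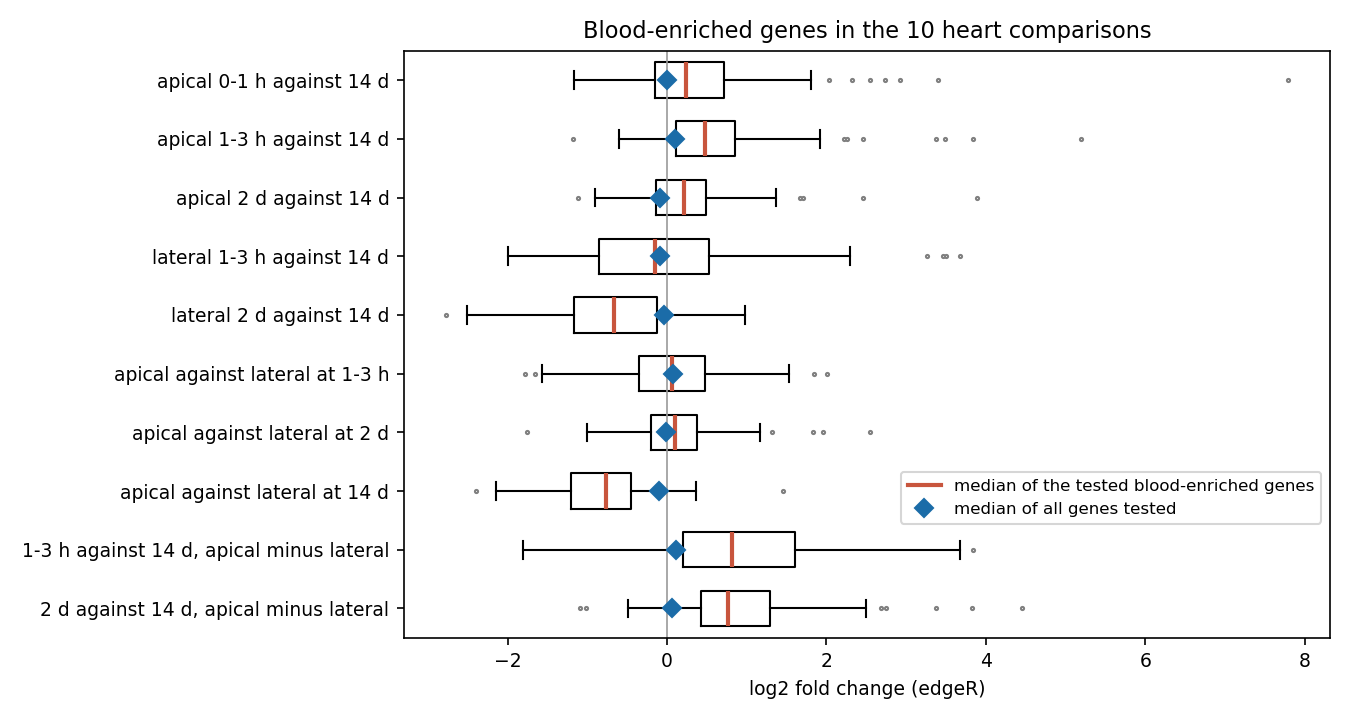
Log2 fold changes of the tested members in the 10 comparisons as box plots (box at the quartiles, whiskers to 1.5 times the box, points beyond), with the members' median in red and the median of all genes tested as a blue diamond. The members' median is 0.47 in the apical comparison of 1–3 h with 14 days, −0.67 in the lateral comparison of 2 days with 14 days and −0.77 for apical against lateral at 14 days.

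In the non-infarcted region no member was called at 1–3 h against 14 days by edgeR, where 0% of the 17842 genes tested were. DESeq2 called 0 members and 2.11% of all genes, but gave no adjusted p for 81 members. Counting unadjusted p under 0.05, 8 members (5.52%) were higher and 1 (0.690%) lower, against 9.51% and 1.70% of all genes. DUSP2 had 0.55, 9.21 and 23.4 CPM in the 3 lateral libraries of 1–3 h and 0.19, 1.06 and 3.11 CPM in the lowest, median and highest of the 6 of 14 days. The library with 0.55 CPM came from swine 5385, whose apical biopsies had the highest DUSP2. The log2 fold change was 3.68 ± 1.06 (SE) with an adjusted p of 0.1705. SLC25A39, a mitochondrial carrier, had 1.41 ± 0.41 with 0.1661, and GIMAP4 2.13 ± 0.66 with 0.2019. GIMAP4 had 7.50, 15.0 and 195.9 CPM in these libraries, of which the highest was the library that stood apart. The median over members was −0.15 and that over all genes −0.08. It was −1.03 without that library and 0.33 without lateral replicate 5 of 1–3 h, and 0.67 with the left-out libraries added back. Without lateral replicate 6 of 1–3 h, 3 members (SLC25A39, DUSP2 and GIMAP4) and 659 genes were called, so with 3 libraries the values rest on single biopsies.

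At 2 days against 14 days in the non-infarcted region the members were lower on balance, and none passed the test. The edgeR test called 0 members and 0% of all genes, and DESeq2 0 members and 0.0112% of all genes. At an unadjusted p under 0.05, 0 members were higher and 13 (8.97%) lower, against 0.751% and 5.60% of all genes. The median log2 fold change was −0.67 over members and −0.04 over all genes. CD247, the zeta chain of the T cell receptor, had 6.06, 9.06, 10.2 and 14.0 CPM at 2 days and 10.8, 24.9 and 72.5 CPM in the lowest, median and highest library of 14 days. The groups overlapped, and the log2 fold change was −1.25 ± 0.44 (SE) with an adjusted p of 0.6232. GZMH (a granzyme) at −2.51 ± 0.92 and PRKCQ (a kinase of T cell signalling) at −1.34 ± 0.52 had the same adjusted p. Of the members tested 20% were above 0, while 47.2% of all genes were. The T cell members had a median of −1.10 and none of 16 was above 0, but they were read from the same libraries. Without lateral replicate 2 of 14 days, the library with the highest summed level, the median over members was −0.37. In that fit 3 members had an unadjusted p under 0.05, and the share of all genes is not given. With the left-out libraries added back the median over members was 0.26.

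The regions were compared at each timepoint in 1 fit of 17969 genes. At 1–3 h no member was called, 0.0557% of all genes were, and DESeq2 called 0 members and 0.145% of all genes, with no adjusted p for 59 members. Before adjustment, at a p under 0.05, 1 member (0.690%) was higher and 1 lower in the infarcted region, against 1.09% and 2.22% of all genes. These were TENT5C at 0.94 ± 0.44 and GIMAP4 at −1.57 ± 0.55, with an adjusted p of 0.9971 for both, and GIMAP4 rests on the library with 195.9 CPM. The median over members was 0.06 and that over all genes 0.07, but its direction turned on single libraries, from −0.31 without lateral replicate 5 of 1–3 h to 0.70 without lateral replicate 4. DUSP2 was at 1.43 ± 1.15 (SE) between the regions, with an adjusted p of 0.9971. With 3 lateral libraries, a difference of DUSP2 between the regions was not shown. Whether any of these 3 came from or near the infarct, as the paper proposes for 2 of its non-infarcted samples, was not tested.

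At 2 days the comparison of the regions called 0 members and 0% of all genes by edgeR, and DESeq2 called 0 members and 0.0111% of all genes. With p under 0.05 before adjustment, 1 member (0.690%), HMMR (a receptor of hyaluronan that marks dividing cells), was higher and 0 were lower, against 2.30% and 0.996% of all genes. Its log2 fold change was 1.95 ± 0.66 (SE) with an adjusted p of 0.9999. The median over members was 0.10 and that over all genes −0.01, and with 1 library left out the members' median ranged from −0.19, without apical replicate 6 of 2 days, to 0.24, without apical replicate 2.

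At 14 days the members were lower in the infarcted than in the non-infarcted region on balance, and none passed the test. Of the members tested 15 (10.3%) were above 0, while 43.2% of all genes were. The median was −0.77 over members and −0.10 over all genes. The edgeR test called 0 members and 0% of all genes, and DESeq2 called 0 members and 0% of all genes. Counting unadjusted p under 0.05, 0 members were higher and 13 (8.97%) lower, against 2.72% and 2.32% of all genes. CD247 had 4.95, 8.40 and 28.8 CPM in the lowest, median and highest of the 7 apical libraries and 10.8, 24.9 and 72.5 CPM in the 6 lateral ones. The groups overlapped, and the log2 fold change of −1.24 ± 0.37 (SE) had an adjusted p of 0.6518 by edgeR. PRKCQ at −1.41 ± 0.53 and ABTB3 at −1.23 ± 0.47 had the same adjusted p, and PTPRC was at −0.45 ± 0.26. Of the T cell members, read from the same libraries, 0 of 16 were above 0, with a median of −1.12.

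This difference at 14 days leaned on single lateral biopsies. Without lateral replicate 2 of 14 days the median over members was −0.41. In that fit 1 member had an unadjusted p under 0.05, and the share of all genes is not given. Lateral replicates 2 and 3 of 14 days also had the highest levels of other lists in their group. Their summed T cell list was 670.3 and 507.4 CPM against a group median of 163.7. The neutrophil list was 197.2 and 137.4 CPM against 34.8, and the platelet list was 93.0 and 70.2 CPM against 26.7. The part of blood in these biopsies was not tested.

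Whether the change from 14 days differed between the regions was tested by an interaction term. At 1–3 h it called 0 members and 0% of all genes by edgeR, and DESeq2 called 0 members and 0.0278%. At an unadjusted p under 0.05, 11 members (7.59%) were higher and 1 (0.690%) lower in the infarcted region, against 2.50% and 2.74% of all genes. The median over members was 0.82 and that over all genes 0.11, and the members' median ranged from 0.42 without lateral replicate 5 of 1–3 h to 1.56 without lateral replicate 4. The members with the smallest p were CD247 at 1.71 ± 0.60, BLK at 2.86 ± 1.13 and TBC1D10C at 2.39 ± 0.98, with an adjusted p of 0.6771 each. The median was −0.32 with the left-out libraries added back. At 2 days the interaction called 0 members and 0% of all genes, and DESeq2 called 0 members and 0.00557%. Here 5 members (3.45%) were higher and 0 lower at an unadjusted p under 0.05, against 1.84% and 0.790% of all genes, with a median of 0.76 over members and 0.07 over all genes. CD247 was at 1.39 ± 0.60 with an adjusted p of 0.8812. Both terms contain the same libraries of 14 days and so the difference of the regions at 14 days.

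The lists that gave few or no members showed which immune genes the rule had left out. The 14 monocyte and macrophage genes had a summed level of 379.1 CPM over the heart libraries after baseline. In blood the sum was 452.1 CPM, so heart stood at 83.8% of blood. A few abundant genes can carry such a sum, and the single genes were not compared with blood. In the infarcted region their median lay between 51.0% of blood, at 1–3 h, and 108.9%, at 2 days, with 82.0% during the occlusion and 93.2% at 14 days. The platelet list stood at 28.7% and the list of innate sensing at 29.3%. The whole neutrophil list had a median of 84.3 CPM at 1–3 h and 25.1 CPM at 14 days in the infarcted region, and 83.1 and 34.8 CPM in the non-infarcted region. These sums were not tested. Of the 12 neutrophil genes tested in the infarcted region at 1–3 h edgeR called none, and 1, CSF3R, had an unadjusted p under 0.05. Of all genes there, 3.62% were called, and 9.05% were higher and 9.15% lower before adjustment. The T cell list stayed at 1.89% of blood at 1–3 h and 1.65% at 14 days in the infarcted region, and at 2.88% and 2.94% in the non-infarcted region.

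The members of the lists were also summed by themselves. The 5 neutrophil members summed to 2.82% of blood at 1–3 h and 1.24% at 14 days in the infarcted region, with 5.11 to 105.4 CPM over the libraries of 1–3 h and 5.57 to 53.9 CPM over those of 14 days. In the non-infarcted region they summed to 6.66% and 1.38%, with 12.4 to 94.0 CPM and 9.05 to 60.2 CPM, so the groups overlapped in both regions. The 16 T cell members were at 1.26% and 1.31% in the infarcted region and at 2.52% and 2.52% in the non-infarcted region. The 17 members expressed by all leukocytes were at 321.9 and 258.0 CPM in the infarcted region, and at 351.2 and 422.1 CPM in the non-infarcted region.

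**Figure D5:**
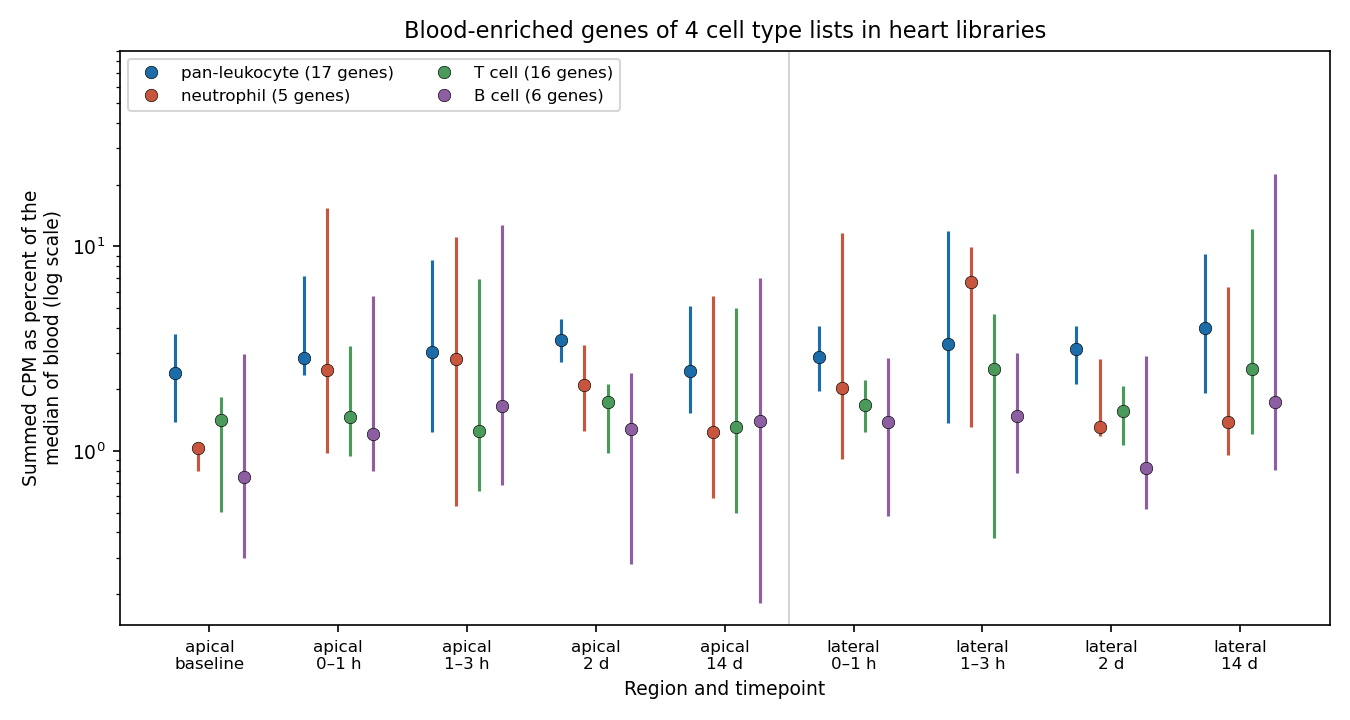
Summed CPM of the members in 4 gene lists as a percent of the blood median on a log axis, by region and timepoint, with a point at the group median and a line from the lowest to the highest library. The neutrophil members are at 2.82% at 1–3 h and 1.24% at 14 days in the infarcted region with overlapping lines, and the T cell members are at 1.26% and 1.31%.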

How the data were processed

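RNA of micro-EMB and whole blood was sequenced with a SMARTer Pico kit. The authors mapped the reads with STAR to Sscrofa11.1, counted them per Ensembl gene with featureCounts and deposited raw counts, without normalization. The column names mark counting without strand, so overlapping and antisense genes are uncertain, and reads were not collapsed by molecule, so low counts carry more than counting error. Symbols were given for 15029 of 31907 genes and for 125 of the 150 members by a table pairing Ensembl gene IDs with names.

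Usable libraries and members were found by the rules given with the results. Usable libraries had a median of 7782629 counts. Fibrous libraries had a value above 25 on component 2 of a principal component analysis of the 500 most variable genes (log2 CPM, prior count 2). The members, gene lists, named genes and library limits were chosen with earlier results of these data known. The named genes were the 20 members with the largest difference, the called members or the 3 with the smallest p in each comparison, members of the lists and the genes at the limit, and not all are printed: some members are not reported here by name. CSF3R, STEAP4 and BLK at 1–3 h, MMP25 and PTPRC across libraries, and GIMAP4 at 2 days were singled out after their values were seen.

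edgeR 4.0.16 (R 4.3.3, TMM, quasi-likelihood test) was fitted on groups of region and timepoint without baseline, with DESeq2 1.42.0 as an alternative. Adjusted p-values that DESeq2 gave as missing were not counted as calls. Libraries of the same swine number come from the same animal, so the number was used as a block in an alternative. The deviations of genes from the group means correlated at 0.081 on average within a swine and at −0.035 between swine. Promoter windows were read from the genome, Sscrofa11.1, at the RefSeq gene starts. Sums over members are descriptions without a test.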

Additional observations from a re-analysis of the deposited data

Results flagged for a closer look

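In 45 groups of 4 to 10 libraries examined for a library far from the others, 8 had one, each the highest of its group. The limit used allows about 1 in 20 for normally distributed values. It was applied to CPM without logs, which can be skewed, so the 8 were not weighed against chance. The summed member level of apical replicate 6 of 14 days (swine 1640) was 2380.1 CPM, far above the other 6 libraries of its group, and ENSSSCG00000016184 had 2.08 CPM in the same library. DUSP2 had 32.24 CPM in apical replicate 4 of 0–1 h, 120.53 CPM in blood replicate 4 of 2 days and 2.83 CPM in lateral replicate 6 of 2 days, all of swine 1640. CCR1 had 10.86 CPM in apical replicate 3 of 0–1 h, a fibrous library of swine 5385. ENSSSCG00000044736 had 16.19 CPM in apical replicate 9 of 1–3 h (swine 5385) and 8.12 CPM in lateral replicate 6 of 2 days (swine 1640).

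The 17 heart libraries that were not usable had a median summed member level of 7127.6 CPM, with a range of 6136 to 9791.6 CPM, above the highest usable heart library of 5326.3 CPM. Of these, 15 had an even count profile, with 6136 to 7859.9 CPM. What raised the member level in them was not tested.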

How the results depend on the processing

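The 10 comparisons gave 225 counts of called members under alternatives, of which 16 were not within 1.5 times the main count. For 1–3 h against 14 days in the infarcted region, 4 members were called, and 2 with library totals in place of TMM, 7 with DESeq2, 2 without a low-count filter, 1 with the swine number as replicate block, 0 with counts summed per swine, 1 with all libraries of at least 1000000 counts, and 1 to 4 when 1 library was left out. A single member was called without apical replicates 1, 2, 4, 8 or 9 of 14 days or replicate 3 of 1–3 h, and 2 without replicates 4, 6 or 9 of 1–3 h. The lateral comparison of 1–3 h gave 0 to 3. This block of swine changed no other count of calls. The values of single members gave 700 alternatives, of which 645 kept direction and side of the threshold, 44 lost a call and 3 gained one. The 8 that reversed were GIMAP4 at 1–3 h, lateral (−0.35 without fibrous libraries and −0.35 without lateral replicate 4 of 1–3 h) and between the regions (0.70 and 0.70), CORO1A between the regions at 1–3 h (0.19 and 0.29), and, with all libraries of at least 1000000 counts, PRKCQ at 2 days, lateral (0.29) and CCR7 between the regions at 2 days (0.08). With 1 library left out, GIMAP4 ranged from −0.35 to 2.68 in the lateral region and from −2.07 to 0.70 between the regions, and CORO1A from −1.69 to 0.29.

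The summed level moved with the number of members. With 300 members the medians were 4.70%, 7.31%, 3.81% and 5.81% of blood in the infarcted region from 0–1 h to 14 days, and 5.57%, 7.35% and 3.41% in the non-infarcted region to 2 days. With 75 members the lateral median of 2 days was 1.88%. With CPM from TMM library sizes it was 3.70% for apical 2 days, 3.92% for lateral 0–1 h and 3.90% for lateral 2 days, and with all libraries of at least 1000000 counts 16.3% for apical 2 days, 14.2% for lateral 1–3 h and 3.63% for lateral 2 days. Added libraries and members enter these values by construction, and the cause of the other changes was not tested. Leaving out each replicate beyond groups of 5 libraries was chosen after the data were seen. A fit with baseline was not made for the non-infarcted region, which has no baseline library. Low members, with few counts per library, limit the precision of single genes.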
